A study of Mus musculus with 229 samples.

Results

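Chromatin of PDGFRa-GFP cells sorted from mouse cerebral cortex at E14.5 and P5 was open not only at gene starts but also far inside genes, and 21628 such interior intervals are described here. They come from 1 pooled ATAC-seq peak list. ATAC-seq cuts accessible DNA with a transposase, and a peak is a stretch with more cuts than a background level. An interval was taken when it was narrower than 1500 bp, lay on chromosomes 1 to 19 inside the span of a protein-coding gene, and was more than 5 kb from both ends of every protein-coding span. The list holds 76321 intervals, of which 74909 are on these chromosomes, so the interior intervals are 28.9% of the autosomal ones. Of the other autosomal intervals, 31459 narrow ones lay within 5 kb of a span end, 19920 narrow ones lay outside all spans, and 1902 were 1500 bp or wider. The members were thus chosen by measured peaks, and their number, width and density are descriptions. In all, 13174 protein-coding genes had an interior that could hold such an interval.

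The peak list pools cells from PDGFRa-GFP mice at E14.5 and P5, and the 2 ages cannot be separated in it. Expression comes from PDGFRa-GFP pups and from hGFAP-GFP pups, both sorted from cortex for GFP and against the dead-cell dye 7-AAD. Drop-seq, which counts RNA molecules at their 3′ end in droplets, gave 1 library of PDGFRa-GFP cells at P1-3 and 1 of hGFAP-GFP cells at P5-6. C1 capture of single cells gave 60 PDGFRa-GFP cells at P3, 53 PDGFRa-GFP cells at P6, 49 hGFAP-GFP cells at P3 and 61 hGFAP-GFP cells at P4 to P6. The labels call the genotypes PDGFRa normal and hGFAP normal and name no animals, so the number of mice behind a group is unknown and each group is 1 sample of cells. GFP marks every cell in which the driving promoter is or was active, so each sort can hold several cell types. In the droplet libraries the strain and the age change together, so their parts in any difference cannot be told apart. Some fields of the labels name another stage or strain than the sample titles, and the titles were followed.

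Open chromatin inside genes can hold enhancers, which bind transcription factors and act on promoters from a distance, and second promoters, from which shorter transcripts start. Genes of developmental transcription factors and of receptors in the brain are known to carry many enhancers in their introns. Cells with Pdgfra are mainly oligodendrocyte precursors, while cells with an active human GFAP promoter include astrocytes, radial glia and their offspring. Whether an interval lay in an exon or an intron was not analysed here, since gene spans and starts were the only annotation used.

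The PDGFRa-GFP droplet library held 3184 cells with 8166699 molecules (UMIs), with 2013.5 in the median cell. For hGFAP-GFP, where the label gives 2000 cells, 815 cells were found with 4196024 UMIs and 4167 in the median cell. The libraries shared 0 cell barcodes. Summed over 6 markers, oligodendrocyte precursor genes made up 1468 of every 1000000 UMIs (counts scaled in this way are called CPM) in the PDGFRa-GFP library and 724 CPM in the hGFAP-GFP library. The 5 astrocyte markers summed to 131 CPM in the PDGFRa-GFP library and 1318 CPM in the hGFAP-GFP library. The 6 neuron markers summed to 2417 CPM in PDGFRa-GFP and 1304 CPM in hGFAP-GFP, so neither library is a pure glial one. Ttr, the main transcript of the choroid plexus, was at 10016 CPM in the PDGFRa-GFP library and at 0 in the hGFAP-GFP library. The 4 choroid plexus markers summed to 10088 CPM in PDGFRa-GFP and 3.10 CPM in hGFAP-GFP, and 3 haemoglobin genes to 364 CPM in PDGFRa-GFP and 1.43 CPM in hGFAP-GFP. Endothelial markers summed to 2.20 CPM in PDGFRa-GFP and 7.39 CPM in hGFAP-GFP, and microglial markers to 34.8 CPM in PDGFRa-GFP and 5.48 CPM in hGFAP-GFP. The part of these other cells in the differences given here was not tested, and fewer cells of a type and less RNA per cell cannot be told apart in a summed library.

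A few of the interior intervals covered an annotated start of a transcript. RefSeq (GRCm38.p6) lists 31396 autosomal gene starts with a window from 250 bases before to 50 bases after the start. Of these, 4101 lay deep inside a span, and 941 of them (22.9%) were touched by a member. Among starts of protein-coding genes the share was 735 of 2013 (36.5%), and among starts of long non-coding RNAs it was 206 of 2088 (9.87%). The sequences below show what such starts look like in the genes discussed later, with every CG dinucleotide in capitals and all windows read 5′ to 3′ on the strand of the gene. Gse1 and Plxnb2 show CG-rich interior starts under a member, Nfix shows a start with few CG pairs under a member and another outside all intervals, and Hif1a and Rps6ka2 show the starts under 2 of the strongest members. All were chosen after their values were seen.
Gse1, chr8:120537159-120537458, plus strand: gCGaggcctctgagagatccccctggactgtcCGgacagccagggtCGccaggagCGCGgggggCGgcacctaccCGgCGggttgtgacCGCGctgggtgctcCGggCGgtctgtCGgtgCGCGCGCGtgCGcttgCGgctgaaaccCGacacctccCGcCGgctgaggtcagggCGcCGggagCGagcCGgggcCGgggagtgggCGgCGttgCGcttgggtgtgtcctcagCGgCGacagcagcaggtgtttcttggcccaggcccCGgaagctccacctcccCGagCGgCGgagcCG
Plxnb2, chr15:89173902-89174201, minus strand: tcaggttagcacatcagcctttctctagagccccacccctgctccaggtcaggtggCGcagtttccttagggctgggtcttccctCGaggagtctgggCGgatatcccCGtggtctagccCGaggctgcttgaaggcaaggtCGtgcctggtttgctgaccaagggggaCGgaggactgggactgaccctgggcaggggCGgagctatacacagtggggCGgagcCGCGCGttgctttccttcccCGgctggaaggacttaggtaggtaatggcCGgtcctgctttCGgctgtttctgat
Nfix, chr8:84775779-84776078, minus strand: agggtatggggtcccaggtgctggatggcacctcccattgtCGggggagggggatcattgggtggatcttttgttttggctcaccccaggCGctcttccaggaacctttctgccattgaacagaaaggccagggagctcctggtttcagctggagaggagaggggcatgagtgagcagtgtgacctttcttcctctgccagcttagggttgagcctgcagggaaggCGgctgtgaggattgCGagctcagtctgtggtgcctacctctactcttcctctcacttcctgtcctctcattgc
Nfix, chr8:84772826-84773125, minus strand, in no interval: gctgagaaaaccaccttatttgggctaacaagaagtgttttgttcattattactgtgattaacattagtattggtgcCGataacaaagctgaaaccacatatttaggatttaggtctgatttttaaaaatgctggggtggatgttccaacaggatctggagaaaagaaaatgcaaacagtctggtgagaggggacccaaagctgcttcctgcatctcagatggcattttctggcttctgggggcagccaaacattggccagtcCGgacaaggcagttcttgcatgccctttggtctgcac
Hif1a, chr12:73907617-73907916, plus strand: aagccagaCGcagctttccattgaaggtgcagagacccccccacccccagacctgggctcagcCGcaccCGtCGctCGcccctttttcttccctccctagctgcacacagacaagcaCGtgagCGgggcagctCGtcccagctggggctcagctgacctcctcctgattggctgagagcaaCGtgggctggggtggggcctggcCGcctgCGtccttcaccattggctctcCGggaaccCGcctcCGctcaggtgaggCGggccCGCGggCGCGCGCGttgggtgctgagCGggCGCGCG
Rps6ka2, chr17:7169865-7170164, plus strand: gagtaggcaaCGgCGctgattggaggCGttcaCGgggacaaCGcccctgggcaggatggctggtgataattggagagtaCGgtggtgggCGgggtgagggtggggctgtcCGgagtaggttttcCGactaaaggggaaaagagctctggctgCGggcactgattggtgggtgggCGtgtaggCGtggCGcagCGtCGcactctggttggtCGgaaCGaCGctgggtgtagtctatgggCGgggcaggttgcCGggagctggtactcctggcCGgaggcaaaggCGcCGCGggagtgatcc

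The Gse1 window held 37 CG pairs at a GC content of 74.7% and lay whole inside a member with a fold of 7.58 over background. The Plxnb2 window held 15 CG pairs at 61.7% GC, under a member of fold 4.04. The Nfix window under a member of fold 5.06 held only 4 CG pairs at 57.3% GC, and the Nfix window in no interval held 2 at 44.3% GC. The Hif1a and Rps6ka2 windows held 25 and 24 CG pairs and lay under members of fold 20.7 and 22.7. These examples lean to the CG-rich end, since the median over all 4101 interior starts was 5 CG pairs and 50.3% GC.

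Over the 941 interior starts under a member, the median was 14 CG pairs and 59% GC, against 4 CG pairs and 48.3% GC over the 3044 interior starts in no interval. The GC box GGGCGG, read on either strand (CCGCCC on the other), was in 50.7% of the starts under a member and in 10.7% of those in no interval. Its share was 21.9% over all interior starts and 36% over all autosomal starts. Over the 13665 autosomal starts in an interval, 12608 of them not deep inside a span, it was 66.5%, with a median of 22 CG pairs and 62.3% GC, so open interior starts held the GC box less often than open starts overall. The NFI motif TTGGCA (reverse TGCCAA) was in 14.9% of starts under a member, 15.7% of those in no interval and 14.1% of all starts. The E-box CAGCTG, which reads the same on both strands, was in 22.2% of starts under a member, 19.1% of those in no interval and 16.3% of all starts. The Sox motif ACAAAG (reverse CTTTGT) was in 17.1% of starts under a member, 24.6% of those in no interval and 18.6% of all starts. No motif of the 4 contains another, neighbouring matches of different motifs can share at most 2 letters, and a match is a string of letters and not a measured binding site.

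Members over a start were wider and stronger than the others. The 796 members over an annotated start (3.68% of the members) had a median width of 488 bp and a median fold of 5.06. The other 20832 had a median width of 199 bp and a median fold of 3.54. A −log10 q of at least 5 was reached by 45.4% of those over a start and 8.63% of the others. Most members therefore lay away from any start in the annotation used.

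Members also lay over microRNA genes. Of 345 annotated miRNA hairpins deep inside spans, 11 (3.19%) were overlapped by a member and 41 had a member within 1 kb. Mature RNAs of 4 such hairpins are shown with the seed, bases 2 to 8, in capitals, from RefSeq (GRCm38.p6). The hairpins are the one in Gse1, the gene with the most members, and 3 others chosen after their values were seen. The other mature RNA of the miR-128-2 hairpin, miR-128-2-5p, is not shown.
miR-7687-5p, in Gse1: aGGCGGGGaaccugaggcgcaggcu
miR-7687-3p, in Gse1: cCACUCAGucgccccgccaca
miR-128-3p, in Arpp21: uCACAGUGaaccggucucuuu
miR-135b-3p, in Lemd1: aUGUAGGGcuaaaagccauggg
miR-199b-3p, in Dnm1: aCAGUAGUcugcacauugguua
The member over the miR-7687 hairpin, chr8:120537911-120539029, had a fold of 7.58, those over miR-128-2 and miR-135b a fold of 4.04, and that over miR-199b the lowest fold of all members, 2.53. miR-128 is enriched in brain neurons. The 11 hairpins gave 16 mature RNAs with 16 different seeds. The seed of miR-199b-3p is also that of miR-199a-3p, whose hairpin in Dnm3 had a member within 1 kb, and the sequences of the 2 are the same.

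Most interior intervals were narrow and weak. Their median width was 203 bp (quartiles 150 and 313), and 6688 of them (30.9%) had the smallest width in the list, 150 bp. Their median fold, as the peak caller gave it, was 3.54 (quartiles 3.03 and 4.04), and 95.6% had a single summit. A q of 0.05 or less was reached by 12281 members (56.8%), and a −log10 q of at least 5 by 2159 (9.98%). The list thus includes many intervals that the caller itself rated as uncertain. Narrow intervals outside all spans had nearly the same values, with a median width of 204 bp, a median fold of 3.54 and 10.4% at a −log10 q of at least 5. Narrow intervals near span ends were stronger, with a median width of 267 bp, a median fold of 4.04 and 26.7% at that q.

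At the edges of the rule, the widest members were 1490 to 1482 bp wide and lay in Srrm2, Cln8, Slc25a48, Gse1 and Mtss1, with folds of 16.7, 11.6, 4.55, 7.58 and 9.60. The 5 intervals just over the width limit were 1500 to 1507 bp wide with folds of 6.07 to 13.1. The members nearest to a span end, in Sez6, Btd, Pkhd1, Chst12 and Cldn10, lay 5.001 to 5.005 kb from it with folds of 3.03 or 4.04. The nearest intervals on the other side lay 5.000 to 4.995 kb from an end with folds of 2.53 to 4.04.

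Taken over all distances from a gene end, intervals inside genes were denser than those between genes. The 815 Mb of autosomal sequence that could hold a member had 26.5 members per Mb and was covered to 0.737%. The 1306 Mb outside all spans and over 5 kb from an end had 15.3 narrow intervals per Mb and was covered to 0.422%. With 1 pooled list this has no replicate check. The inside and outside sequence were not matched for distance from a gene end, and assembly gaps were not taken out. Density fell with distance from the nearest span end (the plot of density by distance). It was 34.2 per Mb at 5 to 10 kb, 29.8 at 10 to 20 kb, 27.6 at 20 to 50 kb and 27.7 at 50 to 100 kb. Beyond that it was 21.2 per Mb at 100 to 200 kb, 14.8 at 200 to 500 kb and 11.0 beyond 500 kb. Beyond 200 kb it was thus below the 15.3 per Mb outside all spans. The strength of the intervals did not follow, since the share with a −log10 q of at least 5 was between 8.52% and 10.6% in all 7 distance classes. The median distance was 29.8 kb and the farthest member lay 1081 kb from an end. By chromosome, density ran from 21.7 per Mb on chromosome 14 to 32.5 on chromosome 4.

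**Figure D1:**
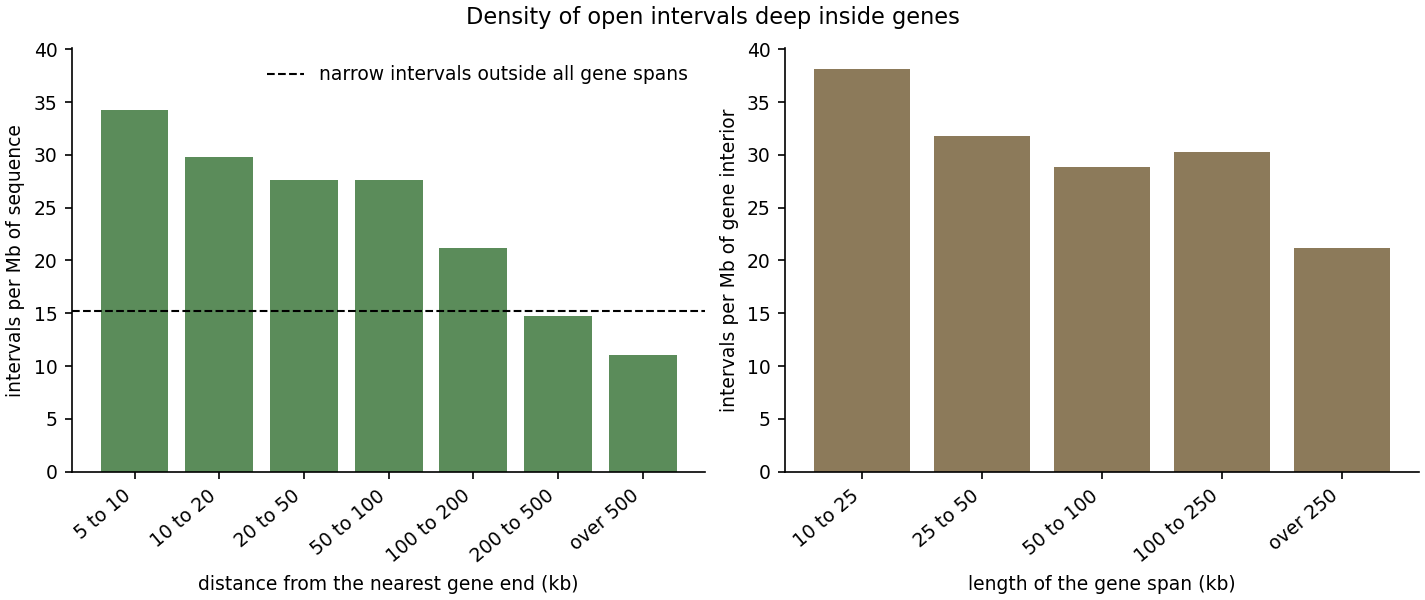
Interior intervals per Mb of gene interior (y axes), by distance from the nearest gene end in kb (left) and by length of the gene span in kb (right), from the pooled PDGFRa-GFP peak list; the dashed line marks narrow intervals outside all spans, at 15.3 per Mb. The left bars go from 34.2 per Mb at 5 to 10 kb to 11.0 beyond 500 kb, and those beyond 200 kb lie below the dashed line.

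Along the interior of a gene, members were spread almost evenly. Position was measured on the span left after 5 kb was cut from each end, since by the rule no member lies in those ends. For 16573 members in 1 span of known strand, each step of 10% of that length held 9.06% to 11.8% of them. The first step held 9.90% and the last 11.8%, and 47.8% lay in the 5′ part before the midpoint. Within a gene, however, neighbours lay close together. The median gap between neighbouring members of a gene was 5.18 kb (quartiles 0.623 and 22.6), and 60.1% of 16728 gaps were within 10 kb. Runs of at least 5 members with gaps of at most 10 kb were found 676 times, in 562 genes. The longest such run had 66 members and lay in Gse1.

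Members were shared out unevenly between genes. Of the 13174 genes with an interior, 5319 (40.4%) held a member, 1941 held exactly 1, 2392 at least 3, 1426 at least 5 and 522 at least 10. The 10% of these genes with the most members held 64.9% of them. Long genes more often held at least 1, from 15.2% of genes with a span of 10 to 25 kb to 96.4% of those over 250 kb. Density ran the other way, with 38.2 members per Mb of interior in genes of 10 to 25 kb, 31.8 at 25 to 50 kb, 28.9 at 50 to 100 kb, 30.2 at 100 to 250 kb and 21.2 over 250 kb. Of the members, 207 lay in more than 1 span and were counted for each.

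The genes with the most members per kb of span included regulators of neural development and several genes that lie side by side in families of near-identical copies. The 25 densest genes with at least 5 members had 0.320 to 0.817 members per kb, against 0.0520 for the median gene with at least 5 members. Just outside the 25 were Jag1 and Pcdhgc5 with 0.314, Ldb1 with 0.301, Celsr3 with 0.297 and Rhof with 0.296 members per kb. Together the 25 held 489 distinct members (2.26% of all), with a median fold of 3.54, and 41 of them (8.38%) reached a −log10 q of at least 5. Their members were thus many but no stronger than members at large. Of the 25, 16 had spans of 25 to 50 kb, and only Gse1 had one over 250 kb.

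**Figure D2:**
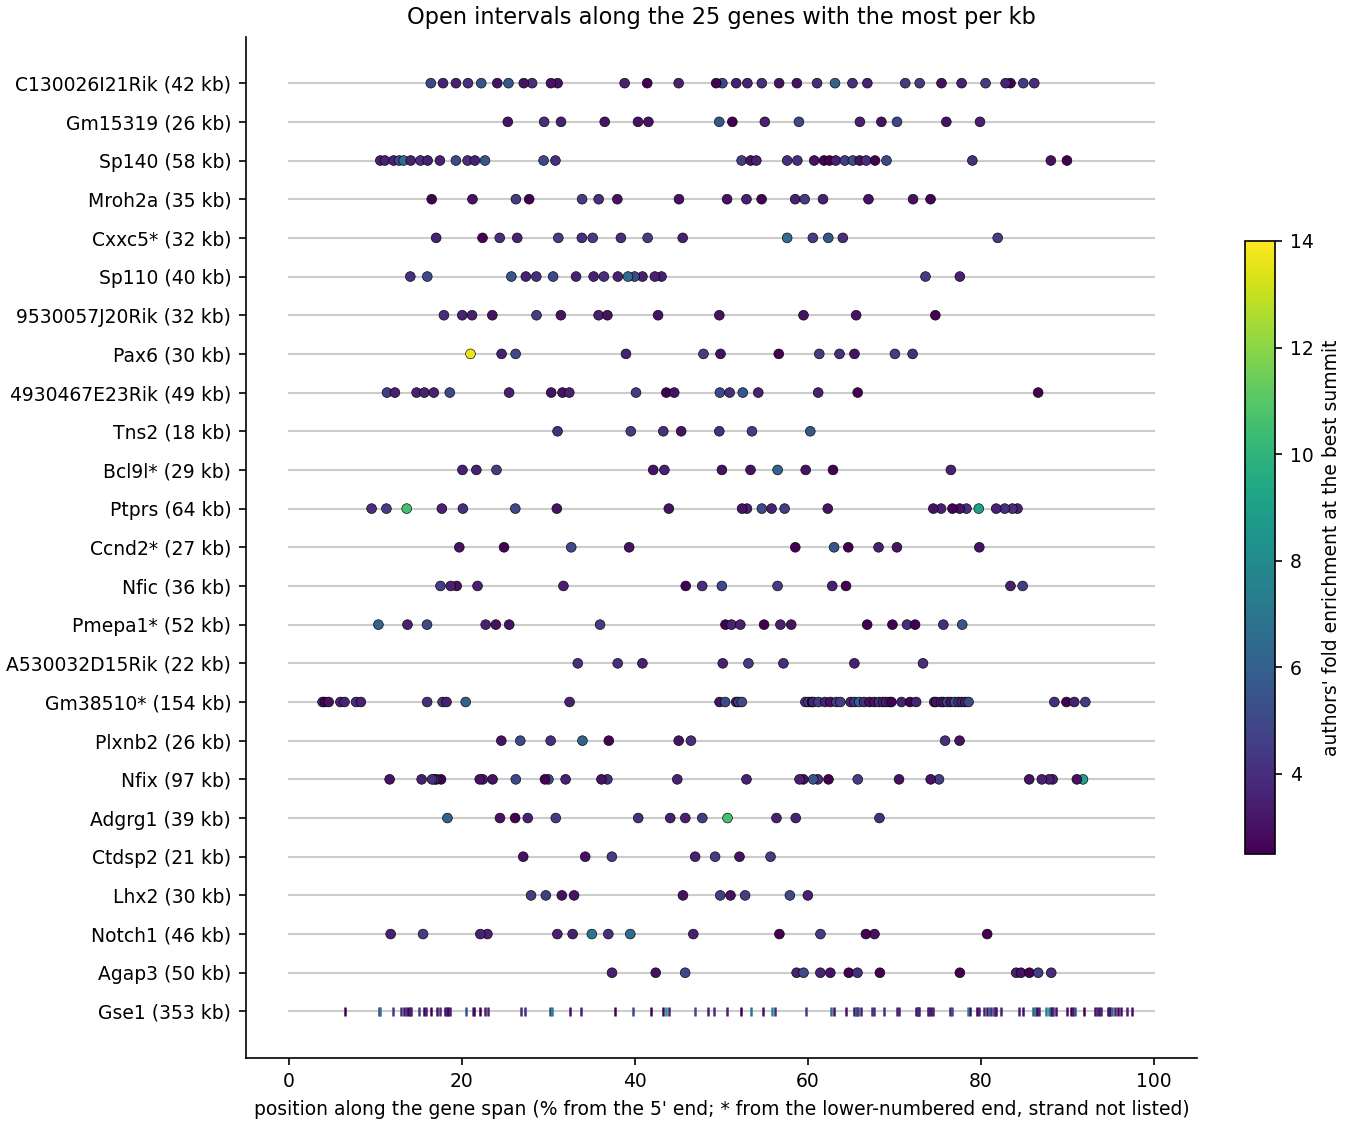
Position of each interior interval along the 25 densest genes, as percent of the span from the 5′ end (x axis; from the lower-numbered end where an asterisk marks a gene with no listed strand), 1 row a gene with its span in kb, and colour for the fold at the best summit (ticks for Gse1). The strongest, in Pax6 with a fold of 13.6, lies 6.2 kb from the 5′ end, and the intervals of most other genes spread over the interior at folds near 3.54.

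Among the densest were 8 genes that lay within 500 kb of another of them, on chromosome 1 near 85 Mb and on chromosome 8 near 20 Mb. They were Sp140 with 33 members, Sp110 with 17, and the genes C130026I21Rik, Gm15319, 9530057J20Rik, 4930467E23Rik, A530032D15Rik and Gm38510. Sp140 and Sp110 encode nuclear proteins of immune cells. C130026I21Rik and Gm38510 overlap and shared 34 members, and Sp140 and Sp110 shared 15. These regions hold near-identical copies of genes, reads may be placed on either copy, and the counts there are uncertain; the part of this in their density was not tested. None of the 8 reached 10 CPM in the PDGFRa-GFP or the hGFAP-GFP library, and 2 of them were in no expression table under these names. Sp140 had 1.84 CPM in PDGFRa-GFP and 1.43 CPM in hGFAP-GFP, and Sp110 had 0.612 CPM in PDGFRa-GFP and 0.953 CPM in hGFAP-GFP.

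The other 17 dense genes stood apart from each other, and 15 of them reached 10 CPM in each library. Over the 23 dense genes found in the tables, the median level was 34.7 CPM in PDGFRa-GFP and 31.2 CPM in hGFAP-GFP, against 9.67 CPM in PDGFRa-GFP and 10.5 CPM in hGFAP-GFP over the 9153 genes with at least 10 kb of interior. The PDGFRa-GFP median depends on how the dense genes are chosen: it was 6.24 CPM, below that of the 9153 genes, when members lay more than 2 kb from an end, 12.9 CPM per kb of interior and 18.6 CPM with summits counted. Drop-seq tags 1 end of a transcript, so these levels are per transcript and not per length. The share at 10 CPM or more was 65.2% in both libraries, against 49.6% in PDGFRa-GFP and 51.2% in hGFAP-GFP over those genes. Between the libraries, 18 dense genes had at least 20 UMIs and gave a ratio. Of these, 0 were 2-fold or more higher in PDGFRa-GFP, where 4.84% of 11892 protein-coding genes were. Lhx2, Nfic and Nfix, 3 of the 18, were 2-fold or more lower, where 11.0% of all genes were. Ratios above 1 were seen in 7 of the 18, against 54.2% of all genes, and the median log2 ratio was −0.21, against 0.06 over all genes. The sign of this median turned with 4 other choices of the dense genes, to 0.20 at more than 2 kb, 0.043 at a −log10 q of at least 5, 0.015 with summits counted and 0.17 per kb of interior. In C1 cells the median over the 23 genes of the mean TPM, a level per length, was 13.2 in PDGFRa-GFP at P3 and 7.05 at P6, against 18.5 in hGFAP-GFP at P3 and 15.3 at P4 to P6. With 1 library on each side no test was possible, and intervals on ratios (95%, exact) cover counting error only.

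Transcription factors of neural progenitors made up the first group of dense genes. Pax6, a paired-domain factor of cortical radial glia, held 12 members in 29.5 kb (0.407 per kb), with a top fold of 13.6. It had 168.5 CPM in PDGFRa-GFP (interval 159.7 to 177.6) and 98.7 CPM in hGFAP-GFP (89.4 to 108.6), a log2 ratio of 0.77 (0.61 to 0.93). In C1 cells it averaged 144.8 TPM in PDGFRa-GFP at P3 and 60.8 TPM at P6, and 81.5 TPM in hGFAP-GFP at P3 and 37.3 TPM at P4 to P6. The C1 mean of PDGFRa-GFP cells at P3 was thus above both hGFAP-GFP means, and that at P6 lay between them. The C1 tables of the 2 strains were normalized separately and have different gene rows, so levels across them are set side by side only. Lhx2, a LIM-homeodomain factor of cortical progenitors, held 10 members (0.328 per kb). It had 34.7 CPM in PDGFRa-GFP (30.7 to 38.9) and 116.5 CPM in hGFAP-GFP (106.4 to 127.3), a log2 ratio of −1.75 (−1.97 to −1.54). Of PDGFRa-GFP C1 cells, 1 of 60 at P3 (1.67%, exact 95% interval 0.0422 to 8.94) and 1 of 53 at P6 had 10 TPM or more of Lhx2, against 14 of 49 hGFAP-GFP cells at P3 (28.6%, 16.6 to 43.3) and 18 of 61 at P4 to P6. The Lhx2 gene was thus among the densest in the pooled E14.5 and P5 peak list, but 0 of its 10 members reached a −log10 q of at least 5. Few PDGFRa-GFP C1 cells had 10 TPM or more of its RNA. In the PDGFRa-GFP droplet library its 34.7 CPM was the median of the dense genes, and droplet cells with Lhx2 were not counted.

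Nfix and Nfic encode nuclear factor I proteins, which act in gliogenesis. Nfix held 32 members in 96.5 kb (0.332 per kb), with a top fold of 9.10. It had 357.2 CPM in PDGFRa-GFP and 718.8 CPM in hGFAP-GFP, a log2 ratio of −1.01 (−1.08 to −0.93). The C1 cells at P3 had the other order. Nfix averaged 364.3 TPM in PDGFRa-GFP at P3 and 203.3 TPM at P6, against 86.8 TPM in hGFAP-GFP at P3 and 270.6 TPM at P4 to P6. Nfic held 13 members (0.364 per kb) and had 45.6 CPM in PDGFRa-GFP and 92.0 CPM in hGFAP-GFP, a log2 ratio of −1.01 (−1.22 to −0.80). Its C1 means were 29.7 TPM in PDGFRa-GFP at P3 and 17.4 TPM at P6, against 13.6 TPM in hGFAP-GFP at P3 and 15.3 TPM at P4 to P6. The lower level of both genes in the PDGFRa-GFP droplet library was thus not seen in C1 cells at P3.

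Cxxc5, a zinc-finger protein that acts on Wnt signalling, held 15 members (0.464 per kb) and had 77.1 CPM in PDGFRa-GFP and 142.5 CPM in hGFAP-GFP, a log2 ratio of −0.89 (−1.05 to −0.72). Bcl9l, a coactivator of beta-catenin, held 11 members (0.377 per kb) and had 10.8 CPM in PDGFRa-GFP and 19.1 CPM in hGFAP-GFP, a log2 ratio of −0.82 (−1.28 to −0.37). Both were lower in PDGFRa-GFP beyond counting error. C1 means had the same order, for Cxxc5 with 20.4 TPM in PDGFRa-GFP at P3 and 12.6 TPM at P6, against 43.7 TPM in hGFAP-GFP at P3 and 29.3 TPM at P4 to P6. For Bcl9l they were 1.39 TPM in PDGFRa-GFP at P3 and 1.82 TPM at P6, against 3.33 TPM in hGFAP-GFP at P3 and 3.03 TPM at P4 to P6. Gse1, a partner of the CoREST repressor complex in human cells, held 113 members in 352.9 kb (0.320 per kb), more than any other gene. It had 60.2 CPM in PDGFRa-GFP and 40.5 CPM in hGFAP-GFP, a log2 ratio of 0.57 (0.32 to 0.83). In C1 cells the order was the other way, with 16.7 TPM in PDGFRa-GFP at P3 and 7.05 TPM at P6, against 48.2 TPM in hGFAP-GFP at P3 and 36.8 TPM at P4 to P6.

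Receptors and signalling proteins formed the second group. Notch1, a receptor that keeps progenitors from differentiating, held 15 members (0.327 per kb) with a top fold of 7.08. It had 67.2 CPM in PDGFRa-GFP and 130.6 CPM in hGFAP-GFP, a log2 ratio of −0.96 (−1.13 to −0.78). At 10 TPM or more it was found in 13 of 60 PDGFRa-GFP C1 cells at P3 and 18 of 53 at P6, against 25 of 49 hGFAP-GFP cells at P3 and 22 of 61 at P4 to P6. Adgrg1, an adhesion receptor of neural progenitors and oligodendrocyte precursors also known as GPR56, held 13 members (0.330 per kb) with a top fold of 10.6. It had 82.8 CPM in PDGFRa-GFP and 100.3 CPM in hGFAP-GFP, a log2 ratio of −0.28 (−0.46 to −0.10). The difference was small beside those of Lhx2 and Notch1. Its C1 means were 61.4 TPM in PDGFRa-GFP at P3 and 84.1 TPM at P6, against 316.9 TPM in hGFAP-GFP at P3 and 85.8 TPM at P4 to P6.

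Ptprs, a receptor phosphatase that binds proteoglycans, held 24 members (0.374 per kb) with a top fold of 10.6. It had 145.7 CPM in PDGFRa-GFP and 146.6 CPM in hGFAP-GFP, and the interval of its log2 ratio, −0.15 to 0.13, included 0. At 10 TPM or more it was found in 59 of 60 PDGFRa-GFP C1 cells at P3 and 53 of 53 at P6, and in 47 of 49 hGFAP-GFP cells at P3 and 59 of 61 at P4 to P6. Ptprs was thus found in nearly every C1 cell of both strains. Plxnb2, a semaphorin receptor, held 9 members (0.340 per kb) and had 35.0 CPM in PDGFRa-GFP and 31.2 CPM in hGFAP-GFP, with an interval of −0.14 to 0.48 on the log2 ratio. Its C1 means were 106.4 TPM in PDGFRa-GFP at P3 and 40.8 TPM at P6, against 18.5 TPM in hGFAP-GFP at P3 and 20.1 TPM at P4 to P6. Pmepa1, a membrane protein induced by TGF-beta that dampens its signal, held 19 members (0.363 per kb) and had 29.8 CPM in PDGFRa-GFP and 50.05 CPM in hGFAP-GFP, a log2 ratio of −0.75 (−1.02 to −0.48). Its C1 means were 12.3 TPM in PDGFRa-GFP at P3 and 10.7 TPM at P6, against 76.2 TPM in hGFAP-GFP at P3 and 10.8 TPM at P4 to P6. At P3 Pmepa1 was thus lower in PDGFRa-GFP in C1 cells too, while the later means nearly matched.

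The remaining dense genes had mixed roles. Ccnd2 encodes cyclin D2, which drives progenitors through the G1 phase. It held 10 members (0.370 per kb) and was the most abundant of the dense genes, with 1899 CPM in PDGFRa-GFP and 2087 CPM in hGFAP-GFP, a log2 ratio of −0.14 (−0.17 to −0.10). Its C1 means were 2190 TPM in PDGFRa-GFP at P3 and 715.9 TPM at P6, against 826.4 TPM in hGFAP-GFP at P3 and 1189 TPM at P4 to P6, so the order at P3 was the other way. Agap3, a GTPase-activating protein for Arf, held 16 members (0.321 per kb) and had 22.5 CPM in PDGFRa-GFP and 13.1 CPM in hGFAP-GFP, a log2 ratio of 0.78 (0.34 to 1.24). In C1 cells Agap3 averaged 21.7 TPM in PDGFRa-GFP at P3 and 5.39 TPM at P6, against 4.19 TPM in hGFAP-GFP at P3 and 10.0 TPM at P4 to P6. Ctdsp2, a small phosphatase, held 7 members (0.329 per kb) and had 40.3 CPM in PDGFRa-GFP and 23.6 CPM in hGFAP-GFP, a log2 ratio of 0.77 (0.44 to 1.11). C1 cells at P3 had the other order for Ctdsp2, with 46.6 TPM in PDGFRa-GFP at P3 and 79.7 TPM at P6, against 118.5 TPM in hGFAP-GFP at P3 and 55.2 TPM at P4 to P6. Agap3, Ctdsp2 and Pax6 were the dense genes with the highest droplet ratios. Tns2, a tensin of focal adhesions, held 7 members and had 4.04 CPM in PDGFRa-GFP and 3.10 CPM in hGFAP-GFP. Mroh2a held 17 and had 1.71 CPM in PDGFRa-GFP and 2.62 CPM in hGFAP-GFP, so both were low in both libraries.

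**Figure D3:**
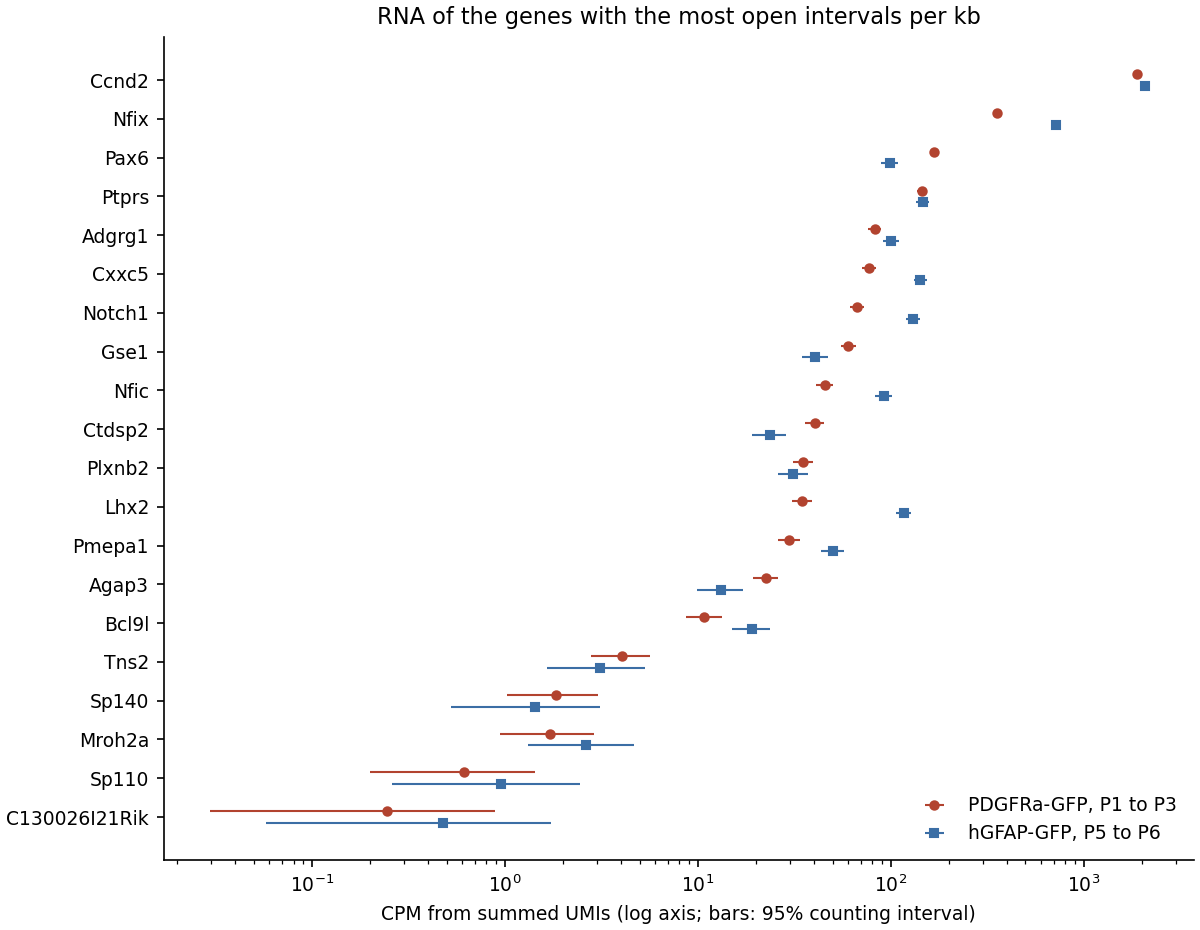
Level in CPM (x axis, log scale) of the densest genes with UMIs in both libraries, PDGFRa-GFP at P1-3 (circles) above hGFAP-GFP at P5-6 (squares), 1 row a gene; bars are exact 95% intervals for counting error. Lhx2 shows the widest gap between the libraries (34.7 CPM in PDGFRa-GFP and 116.5 CPM in hGFAP-GFP), while Ptprs and Plxnb2 overlap.

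Genes ranked by the number of members rather than by density included RNA-binding proteins and transcription factors with long spans. After Gse1 with 113 came Msi2 with 86, Celf4 with 68, Auts2 and Nfia with 65 each, Tcf4 with 56, Gm38510 with 55, Pde4d with 47, and Ptprn2 and Tenm4 with 46 each. The 9 of them in the tables all reached 10 CPM in both libraries, as did 49.6% in PDGFRa-GFP and 51.2% in hGFAP-GFP of the 9153 genes with at least 10 kb of interior. Of the 9, 0 were 2-fold higher in PDGFRa-GFP and 2 were 2-fold lower, against 4.84% and 11.0% over all genes, with a median log2 ratio of −0.17. Msi2, an RNA-binding protein of progenitors, had 264.6 CPM in PDGFRa-GFP and 410.9 CPM in hGFAP-GFP. Its C1 means were 43.4 TPM in PDGFRa-GFP at P3 and 93.1 TPM at P6, against 76.9 TPM in hGFAP-GFP at P3 and 45.1 TPM at P4 to P6. Nfia, the nuclear factor I protein that starts gliogenesis, had 261.9 CPM in PDGFRa-GFP and 752.1 CPM in hGFAP-GFP, a log2 ratio of −1.52 (−1.60 to −1.44). C1 cells gave the same order for Nfia, with 236.8 TPM in PDGFRa-GFP at P3 and 245.5 TPM at P6, against 527.2 TPM in hGFAP-GFP at P3 and 529.7 TPM at P4 to P6. Nfia and Tenm4, a teneurin adhesion protein, were the 2 that were 2-fold lower in the droplet libraries.

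Celf4, an RNA-binding protein of neurons, had 220.4 CPM in PDGFRa-GFP and 173.5 CPM in hGFAP-GFP, a log2 ratio of 0.35 (0.22 to 0.47). Celf4 averaged 56.5 TPM in PDGFRa-GFP C1 cells at P3 and 23.1 TPM at P6, against 25.6 TPM in hGFAP-GFP at P3 and 114.0 TPM at P4 to P6. Tcf4, a basic helix-loop-helix factor, had 1336 CPM in PDGFRa-GFP and 1867 CPM in hGFAP-GFP, a log2 ratio of −0.48 (−0.52 to −0.44). Its C1 means had the other order, with 1292 TPM in PDGFRa-GFP at P3 and 931.9 TPM at P6, against 281.6 TPM in hGFAP-GFP at P3 and 448.4 TPM at P4 to P6. Auts2, a neurodevelopmental regulator, had 124.8 CPM in PDGFRa-GFP and 140.1 CPM in hGFAP-GFP. Its C1 means had the other order, with 138 TPM in PDGFRa-GFP at P3 and 57.5 TPM at P6, against 28.9 TPM in hGFAP-GFP at P3 and 41 TPM at P4 to P6. Pde4d, a cyclic AMP phosphodiesterase, had 28.3 CPM in PDGFRa-GFP and 24.8 CPM in hGFAP-GFP, and Ptprn2, a protein of secretory vesicles, had 12.6 CPM in PDGFRa-GFP and 10.2 CPM in hGFAP-GFP. The intervals of both log2 ratios included 0. In C1 cells Pde4d averaged 16.5 TPM in PDGFRa-GFP at P3 and 141.1 TPM at P6, against 3.96 TPM in hGFAP-GFP at P3 and 19.7 TPM at P4 to P6. Ptprn2 averaged 0.021 TPM in PDGFRa-GFP at P3 and 4.07 TPM at P6. In hGFAP-GFP it averaged 11.5 TPM at P3 and 5.87 TPM at P4 to P6. These means rest on few cells, since 0 of 60 PDGFRa-GFP cells at P3 and 2 of 53 at P6 had 10 TPM or more of Ptprn2. Of hGFAP-GFP cells, 1 of 49 at P3 and 4 of 61 at P4 to P6 did. Tenm4 had 14.2 CPM in PDGFRa-GFP and 46.2 CPM in hGFAP-GFP, a log2 ratio of −1.70 (−2.05 to −1.36). Its C1 means at P3 had the other order, with 14.3 TPM in PDGFRa-GFP at P3 and 0.0024 TPM at P6, against 0.18 TPM in hGFAP-GFP at P3 and 2.93 TPM at P4 to P6, and few cells of either strain had 10 TPM or more (3 of 60 PDGFRa-GFP cells at P3 and 0 of 53 at P6, against 0 of 49 hGFAP-GFP cells at P3 and 4 of 61 at P4 to P6).

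When members were limited to the 2159 with a −log10 q of at least 5, the ranking changed. These lay in 1518 genes, and 34 genes held 5 or more. Gse1 held 16, Sfi1 15, Pde4d 10, Celf4 9, and Nfia and Tenm4 8 each, while Auts2, Dscaml1, Myo10 and Tcf20 held 7 each. In Sfi1, a centrosome protein, all 15 members reached that q, with folds of 6.57 to 12.1 and a median width of 1072 bp. Its strand is not listed and its levels were low, at 7.10 CPM in PDGFRa-GFP and 6.91 CPM in hGFAP-GFP. Whether these 15 intervals lie in a region of artefactual signal was not tested. Sfi1, Myo10 and Tcf20 were named after their values were seen. When the 25 densest genes were drawn from the strong members alone, Gse1 was the only gene shared with the 25 given above.

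The 10 members with the highest fold lay in or across 11 genes. A list of regions with artefactual signal was not used here, so whether any of these intervals lie in such regions was not tested. The strongest, chr2:22587438-22588378 in Myo3a, had a fold of 110.2, and the next, chr6:103648998-103649366 in Chl1, had 103.1. Myo3a, a myosin of sensory cells, was at 0.612 CPM in PDGFRa-GFP and 0.477 CPM in hGFAP-GFP. Chl1, a neural adhesion protein, was at 39.6 CPM in PDGFRa-GFP and 67 CPM in hGFAP-GFP. Then came intervals in Zc3h7a (60.2), in the overlapping Cmss1 and Filip1l (51.6), in 2210408I21Rik (40.9), Peak1 (28.3), Hsd11b1 and Rps6ka2 (22.7 each), Hif1a (20.7) and Uggt2 (20.2). Those in Rps6ka2, chr17:7169119-7170585, and Hif1a, chr12:73907474-73908776, covered the starts printed above. Hif1a, the oxygen-regulated transcription factor, had 64.8 CPM in PDGFRa-GFP and 43.9 CPM in hGFAP-GFP. A fold over 10 was rare, with 230 members (1.06%), and 11 members were over 20.

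Across genes, expression followed the density of members only weakly. The comparison used 9153 genes with at least 10 kb of interior, of which 4394 had no member and the rest were put in quartile groups by members per kb of span. Genes with no member had a median of 10.3 CPM in PDGFRa-GFP and 10.8 CPM in hGFAP-GFP. From the lowest to the highest quartile group, the median in PDGFRa-GFP was 7.10, 9.55, 10.2 and 11.0 CPM, and in hGFAP-GFP 8.10, 10.5, 10.8 and 11.2 CPM. The order among genes with a member was thus the same in both libraries, and genes with no member lay near the third group. Spearman's rho between members per kb and CPM was 0.045 in PDGFRa-GFP and 0.039 in hGFAP-GFP over these genes, and −0.0061 for the log2 ratio over 6779 genes. Among the 4759 genes with a member it was 0.097 in PDGFRa-GFP. Density has the span as its denominator, and its rho with span length was −0.46 among genes with a member. Genes are not independent samples and no p is given.

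**Figure D4:**
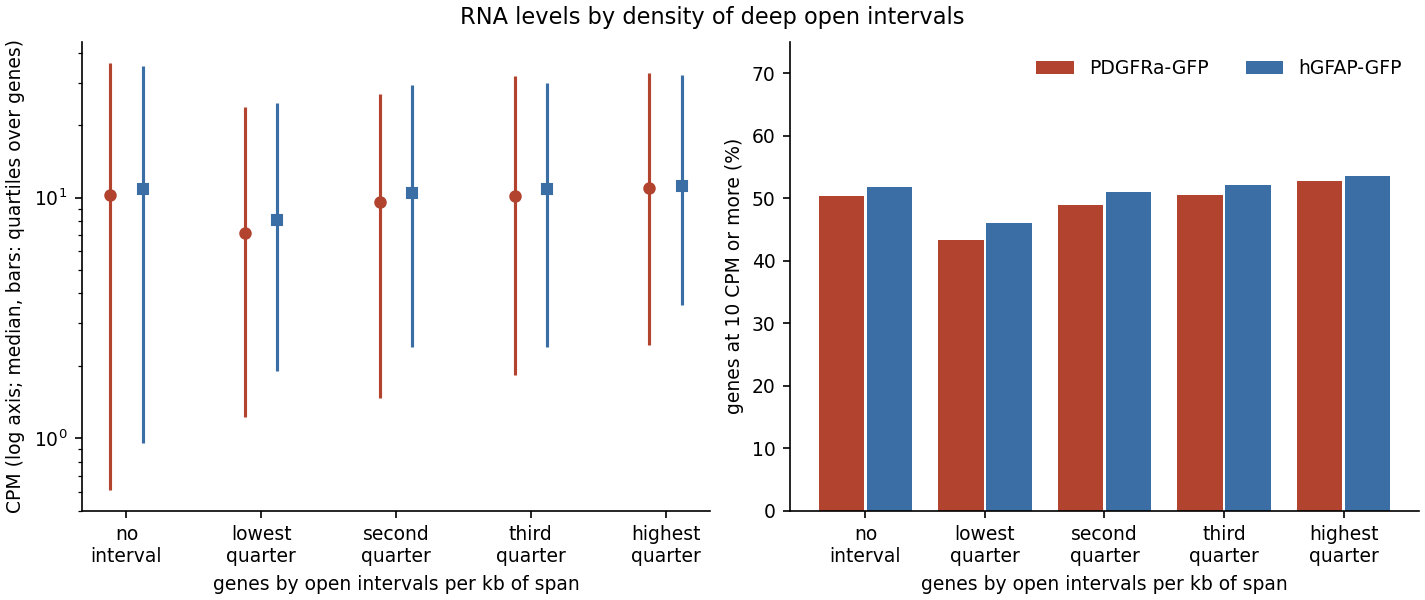
Genes with at least 10 kb of interior, by interior intervals per kb of span (x axes: no interval, then quartile groups from low to high), PDGFRa-GFP left of hGFAP-GFP; the left panel gives CPM on a log axis (points are medians, bars quartiles over genes) and the right panel the percent of genes at 10 CPM or more. The lowest group has the lowest medians, 7.10 CPM in PDGFRa-GFP and 8.10 CPM in hGFAP-GFP, and with 43.4% in PDGFRa-GFP and 46% in hGFAP-GFP it also has the lowest shares at 10 CPM or more.

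The outer start of a gene was more often open where its interior held members. The outermost annotated start was in an interval for 72.7% of genes with no member and for 79.3%, 80.4%, 79.0% and 80.0% of genes from the lowest to the highest quartile group. The step was between genes with and without members, and no trend followed within the groups. Of 14 dense genes with a listed start, 9 had it in an interval, the exceptions being Mroh2a, 9530057J20Rik, Tns2, Nfic and Adgrg1.

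Gene groups differed in how many interior intervals they held. The highest density was in 60 long genes of transcription factors, with 887 members, 54.8 per Mb of interior, against 26.8 per Mb over all genes with an interior. Of these 60, 58 held a member, 48 held at least 5 and 45 were above the overall density of 0.0227 members per kb of span. Over all genes with an interior, 40.4% held a member, 10.8% held at least 5 and 27.2% were above that density. Among all genes with spans of 100 to 250 kb 82.9% held a member, and the median span of the list was 194.8 kb. The counts of genes in the next paragraphs stand beside these shares. The 3 densest of the list were Nfix, Bcl11b with 20 members (0.213 per kb) and Mef2d with 5 (0.166 per kb). Bcl11b, a factor of deep-layer and striatal neurons, had 67.5 CPM in PDGFRa-GFP and 39.1 CPM in hGFAP-GFP. Of 58 factors with a ratio, 3 were 2-fold higher in PDGFRa-GFP and 9 were 2-fold lower, with a median log2 ratio of −0.23. The ratios of this and the next lists stand beside 4.84% of all genes 2-fold higher and 11.0% 2-fold lower.

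Genes of the oligodendrocyte lineage had the second highest density, 39 per Mb, with 19 of 24 genes holding a member and 16 above the overall density. Their 3 densest were Cspg4 with 10 members (0.288 per kb), Nkx2-2 with 5 (0.264) and Myrf with 3 (0.0923). Cspg4, the NG2 proteoglycan of precursors, had 78.7 CPM in PDGFRa-GFP and 47.4 CPM in hGFAP-GFP, a log2 ratio of 0.73 (0.50 to 0.97). Nkx2-2, a homeodomain factor of the lineage, had 24.2 CPM in PDGFRa-GFP and 20.7 CPM in hGFAP-GFP. Pdgfra itself held 2 members (0.0427 per kb) and had 140.7 CPM in PDGFRa-GFP and 88.4 CPM in hGFAP-GFP. In the list 6 of 28 genes were 2-fold higher in PDGFRa-GFP and 1 was 2-fold lower, and the median log2 ratio was 0.67. Astrocyte and radial glia genes had 22 members per Mb, with 12 of 18 genes holding one, led by Gli2 with 15, Acsl6 with 3 and Slc1a2 with 5. Slc1a2, the main astrocyte glutamate transporter, had 62.9 CPM in PDGFRa-GFP and 557.9 CPM in hGFAP-GFP, a log2 ratio of −3.15 (−3.29 to −3.01). In that list 1 of 30 genes was 2-fold higher in PDGFRa-GFP and 17 were 2-fold lower, with a median of −1.32.

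The 2 neuronal lists differed in how their members were spread. Interneuron and neuroblast genes had 36.9 members per Mb, with 10 of 15 holding one, led by Celf4, Dscaml1 with 33 and Gad2 with 6. Celf4 alone held 68 of the 170 members, and without it (a choice made after seeing the data) the list had 23.5 per Mb. That was below the 26.8 over all genes but above the 21.2 over genes with spans over 250 kb. The median span of the whole list was 276.9 kb. The interneuron and neuroblast list was the only 1 of the 12 whose density moved by over 1.5 times without its gene with the most members. The median gene of the list had 0.0219 members per kb of span, and 6 of 15 were above the overall density. Gad2, which makes GABA, had 271.1 CPM in PDGFRa-GFP and 102.7 CPM in hGFAP-GFP, a log2 ratio of 1.40 (1.25 to 1.55). Of 23 genes, 11 were 2-fold higher in PDGFRa-GFP and 1 was 2-fold lower, with a median of 0.89. Excitatory neuron genes had 35.9 per Mb (30.0 without Bcl11b), with 13 of 17 holding a member and 10 above the overall density, led by Bcl11b, Mef2c with 13 and Camk2a with 5. Of 21 genes, 3 were 2-fold higher in PDGFRa-GFP and 11 were 2-fold lower, with a median of −1.20.

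Signalling and guidance genes came next. Growth factor and Notch genes had 33.6 per Mb, with 33 of 41 holding a member, led by Notch1, Jag1 with 11 and Notch2 with 23 (0.168 per kb). Notch2 had 5.39 CPM in PDGFRa-GFP and 21.9 CPM in hGFAP-GFP, a log2 ratio of −2.02 (−2.58 to −1.49). Jag1, a Notch ligand, had 14.2 CPM in PDGFRa-GFP and 23.8 CPM in hGFAP-GFP. Of 36 genes, 4 were 2-fold higher in PDGFRa-GFP and 8 were 2-fold lower, with a median of −0.41. Axon guidance genes had 30.0 per Mb and all 35 held a member, led by Plxnb1 with 5, Sema5b with 20 and Unc5b with 11; of 34 with a ratio, 1 was 2-fold higher in PDGFRa-GFP and 5 were 2-fold lower, with a median of −0.18.

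The lists with the longest genes had few members per Mb. Neuronal adhesion genes, with a median span of 824 kb, held 591 members but only 17.6 per Mb, with 38 of 42 holding one. Of the 42, 15 were above 0.0227 members per kb of span, against 27.2% over all genes with an interior. Nrxn2, a synaptic adhesion protein, led the list with 30 members (0.262 per kb). It had 168.2 CPM in PDGFRa-GFP and 144.4 CPM in hGFAP-GFP. Cntn2 with 8 and Cdh4 with 34 followed. Of 37 adhesion genes, 4 were 2-fold higher in PDGFRa-GFP and 5 were 2-fold lower, with a median of −0.13. Glutamate and GABA receptor genes, with a median span of 324 kb, had 13.9 per Mb, the lowest of the 12 lists, led by Grik3 with 13, Grik4 with 19 and Gabbr2 with 11. Of 24 receptor genes, 3 were 2-fold higher in PDGFRa-GFP and 7 were 2-fold lower, with a median of −0.01.

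The lists of genes of other cell types and organs also had few members per Mb. Endothelial and mural genes had 20.9 per Mb, with 15 of 22 holding a member, led by Pdgfrb with 5, Ptprb with 6 and Pecam1 with 3. Microglia and blood genes had 20.6 per Mb, with 13 of 21 holding one, led by Elmo1 with 15, Tbxas1 with 6 and Runx1 with 6. Genes used mainly in other organs had 16.5 per Mb, with 26 of 38 holding one, led by Myo7a with 7, Ldb3 with 6 and Cngb1 with 5. Elmo1, which acts in cell migration and engulfment, was not low, with 59.4 CPM in PDGFRa-GFP and 28.6 CPM in hGFAP-GFP. The median endothelial gene had 0.673 CPM in PDGFRa-GFP and 1.67 CPM in hGFAP-GFP, the median microglia and blood gene 1.78 CPM in PDGFRa-GFP and 2.03 CPM in hGFAP-GFP, and the median gene of other organs 0.490 CPM in PDGFRa-GFP and 1.19 CPM in hGFAP-GFP. Among 10 endothelial genes with a ratio 2 were 2-fold higher in PDGFRa-GFP and 3 were 2-fold lower (median −0.32). Among 12 microglia and blood genes 4 were 2-fold higher and 3 were 2-fold lower (median 0.34), and among 9 genes of other organs 1 was 2-fold higher and 4 were 2-fold lower (median −0.70). Each of these 3 lists was below the overall 26.8 members per Mb.

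**Figure D5:**
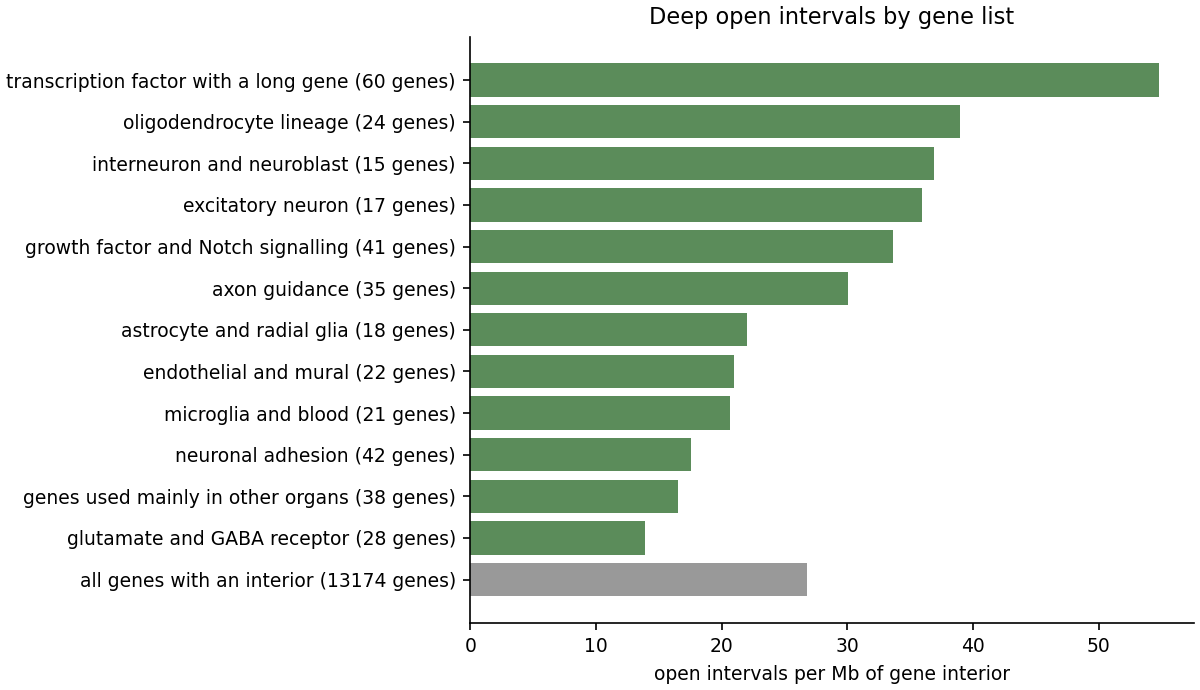
Members per Mb of gene interior (x axis) for 12 gene lists, 1 row a list with its number of genes, and a grey bar for all genes with an interior (26.8 per Mb). Long transcription factor genes stand at 54.8 per Mb, oligodendrocyte lineage genes at 39, and glutamate and GABA receptor genes at 13.9.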

How the data were processed

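The authors deposited 1 pooled ATAC-seq peak list, in which each summit has a fold (a ratio to background, in whole steps of 0.506) and a q value as −log10. The submitters' processing notes name MACS2 2.12, Bowtie2, CASAVA and HOMER, with mm10 and rn5 as builds; the settings are not given in the sources used here. The 93170 summits were merged to 76321 intervals by equal coordinates, and the highest fold of an interval was kept. Gene spans, starts and miRNAs came from RefSeq GRCm38.p6; start windows of chromosome 18 were not used here. Of 31360 autosomal starts, 43.5% were in an interval, which bears on the build. The Drop-seq tables that the authors deposited hold a signal: UMIs from STAR alignments (per the submitters' processing notes), scaled so that a cell sums to 10000. UMI counts were recovered by dividing by each cell's smallest step, and in 100% of cells at least 99% of values came out whole within 0.1. They were summed per library and scaled to CPM, with no cell or doublet filter. The 4 rows sharing a name in the hGFAP-GFP table were left out. The deposited C1 tables hold TPM, for which the submitters' processing notes name RSEM, with 46523 gene rows for PDGFRa-GFP and 24279 for hGFAP-GFP. No read depth was used for C1 cells, so it is unknown. Ratios needed at least 20 UMIs, and a count of 0 was set to 3. Intervals are exact at 95%.

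The rule named the 25 genes with the most members per kb among those with at least 5 members, the 10 with the most members, the 3 densest of each gene list, the 10 strongest members and the members at the edges of the rule. The members and lists were chosen with earlier results of these data known. The steps were tested on simulated data. Analyses used Python with numpy, pandas, scipy and matplotlib. Motif shares around summits, tumour samples and peak sequences were not analysed here.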

Additional observations from a re-analysis of the deposited data

How the results depend on the processing

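Of 74 alternatives, 54 left a result on the same side and within 1.5 times (0.1 for log2 values), 16 moved it and 4 turned its sign. The number of members, 21628, and 26.5 per Mb became 2159 and 2.65 per Mb at a −log10 q of at least 5. Of the 25 densest genes, 11 were kept when members lay more than 2 kb from an end, 14 at more than 10 kb, 14 per kb of interior and 1 at a −log10 q of at least 5. Their median log2 ratio, −0.21, turned to 0.20 at 2 kb, 0.043 at a −log10 q of at least 5, 0.015 with summits counted and 0.17 per kb of interior, so its sign rests on these choices; the cause was not tested. It became −0.38 for genes with at least 1 UMI, −0.32 after the shift of the median gene (0.12 on the log2 scale) was removed and −0.36 with 1000 UMIs drawn per cell (2684 cells of PDGFRa-GFP and 815 of hGFAP-GFP). After that shift 5 of 18 dense genes were 2-fold lower, against 3 before it, and 7 stayed above 0. The number 2-fold higher in PDGFRa-GFP, 0, became 1 among genes with at least 10 members and with 1000 UMIs drawn per cell. Their median of 34.7 CPM in PDGFRa-GFP became 6.24 at 2 kb, 18.6 with summits counted and 12.9 per kb of interior. The C1 median of log2(TPM + 1) for PDGFRa-GFP at P6 was 3.01 from mean TPM and 0.66 from the mean of logs over cells. Without the 8 dense genes near another (chosen after seeing the data) the median ratio was −0.28 and the median level 45.6 CPM. Without Celf4 the interneuron list had 23.5 members per Mb, against 36.9 with it; none of the other 11 lists moved by over 1.5 times without its gene with the most members. No paired analysis was possible because each group is 1 library or 1 set of cells and the peak list is pooled. Depth limits the ratios to genes with 20 or more UMIs, and only 56.8% of the interior intervals reached a q of 0.05 or less.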
